A study of Mus musculus with 4 samples.

Results

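The respiratory chain and ATP synthase genes of mouse retinal organoids were described with and without doxycycline (Dox). Members were the table rows whose gene symbol named a subunit of complexes I to V. For nuclear genes these were Nduf symbols of the a, b, c, s and v series, Sdha to Sdhd, Uqcr, Cox4 to Cox8 and Atp5 symbols, and for mitochondrial genes the mt-Nd, mt-Co, mt-Cytb and mt-Atp symbols. Pseudogene symbols with the ending -ps were left out (8 rows). The rule found 102 of 55426 rows, 89 nuclear and 13 mitochondrially encoded. Of these, 96 averaged at least 1 FPKM and were tested, 83 nuclear and all 13 mitochondrially encoded. The other 6 were too low. Because the rule goes by symbol, 3 tested nuclear members (Ndufb4c, Ndufs6b and Cox6c2) are copies annotated as processed pseudogenes.

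Complexes I to IV pass electrons from NADH and succinate to oxygen, and all of these but complex II pump protons across the inner mitochondrial membrane. Complex V (ATP synthase) uses the proton gradient to make ATP. Complexes I, III, IV and V are built from subunits of 2 genomes, and complex II is not. The nuclear subunits are made in the cytosol from separately controlled genes, whereas the 13 mitochondrial ones are cut from long polycistronic transcripts of the heavy and light strands of mitochondrial DNA. In the retina, oxidative phosphorylation is best known for supplying photoreceptors, which come long after the progenitor stage studied here.

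Retinal organoids are aggregates of stem cells steered in culture towards retinal progenitors. All 4 libraries came from day 6 organoids of the line labelled Rx:GFP Mettl3 KO, with the genotype Mettl3 KO, Dox-inducible HA-METTL3, grown in GMEM-based medium with AGN at 0.1 µM. METTL3 is the enzyme that writes N6-methyladenosine on RNA. The controls carried the same knockout and the same inducible construct and received no Dox (2 libraries), and the other group received Dox at 2 µg/ml for 6 days (2 libraries). The titles call the groups EV and EV+Dox, and EV is not explained. The labels name no clone and no separate cultures, so p-values measure the spread between these samples, which may be technical, and an effect of Dox itself cannot be told apart from that of the construct. Poly(A) RNA was sequenced, so a level is the amount captured, and less RNA, a shorter tail, fewer cells of a type and less RNA per cell cannot be told apart.

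The fitted depth was 31800000 to 34500000 fragments per library. Over all 13931 tested genes, 619 were called higher with Dox (4.44%) and 678 lower (4.87%) at an adjusted p below 0.05 (limma, Benjamini-Hochberg). Mettl3, the targeted gene, was at 40.33 and 37.98 FPKM untreated and at 45.20 and 46.37 FPKM with Dox (log2 fold change 0.22, limma adjusted p = 0.122). The table does not show whether these reads come from the knockout allele or the construct, so the value does not check the labels. The organoids held retinal progenitor RNA in both groups, and the 12 marker genes of that type summed to 249 to 273 FPKM untreated and 1047 to 1232 FPKM with Dox (10 of 11 tested called higher, none at 0). The 10 neuronal markers summed to 156 to 160 FPKM and 83.0 to 86.9 FPKM (7 of 7 tested called lower), and 7 pigment epithelium markers to 6.42 to 6.89 FPKM and 67.1 to 67.7 FPKM (3 of 4 tested called higher). Pluripotency markers summed to 30.1 to 30.3 FPKM and 21.6 to 30.9 FPKM (1 of 7 called lower), and mesendoderm markers to 0.96 to 1.10 FPKM and 2.05 to 2.57 FPKM (none of 8 reached the filter). None of these lists had a marker at 0 in all libraries. These marker levels thus differed between the groups beside every result below, and their part in the results was not tested.

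Few nuclear subunits changed. Of 83 tested, 2 rose and 2 fell, which is 4.82% called against 9.31% of all tested genes. The members that rose were Cox4i2 and Ndufa1, and those that fell were Cox6b2 and Ndufa12. Most others were slightly lower with Dox. The fold change was negative for 68 of 83 (81.9%, against 50.8% of all tested genes), with a median log2 fold change of −0.08 beside −0.0042 for all genes. Without copy rows and tissue-restricted isoforms it was negative for 62 of 76 (81.6%), with a median of −0.08. In 31 of 83 (37.3%, against 26.9% of all tested genes) both Dox libraries lay below both untreated ones, and in 3 of 83 (3.61%, against 26.5%) they lay above. Groups that do not overlap in either direction are common with 2 libraries each, at 53.4% of all tested genes. Median log2 fold changes were −0.06 for complex I, −0.07 for complex II, −0.09 for complex III, −0.11 for complex IV and −0.10 for complex V. In FPKM as deposited, the small shift rested on the second replicates. The median nuclear member, taken as log2(FPKM + 1) minus its gene's mean, stood at 0.0036 and 0.0703 in the untreated libraries and at 0.0189 and −0.113 in the Dox libraries, so untreated replicate 1 and Dox replicate 1 were close and Dox replicate 2 was low. Without Dox replicate 2 the nuclear median was −0.026, and without Dox replicate 1 it was −0.149. The median of nuclear complex I turned to 0.01 without Dox replicate 2. Under the 4 other scalings tried, all 5 medians by complex remained negative. As a share of each library's FPKM sum, the nuclear rows made up 2.24% and 2.28% untreated and 2.18% and 2.14% with Dox. On that scale the first replicates also differed.

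**Figure D1:**
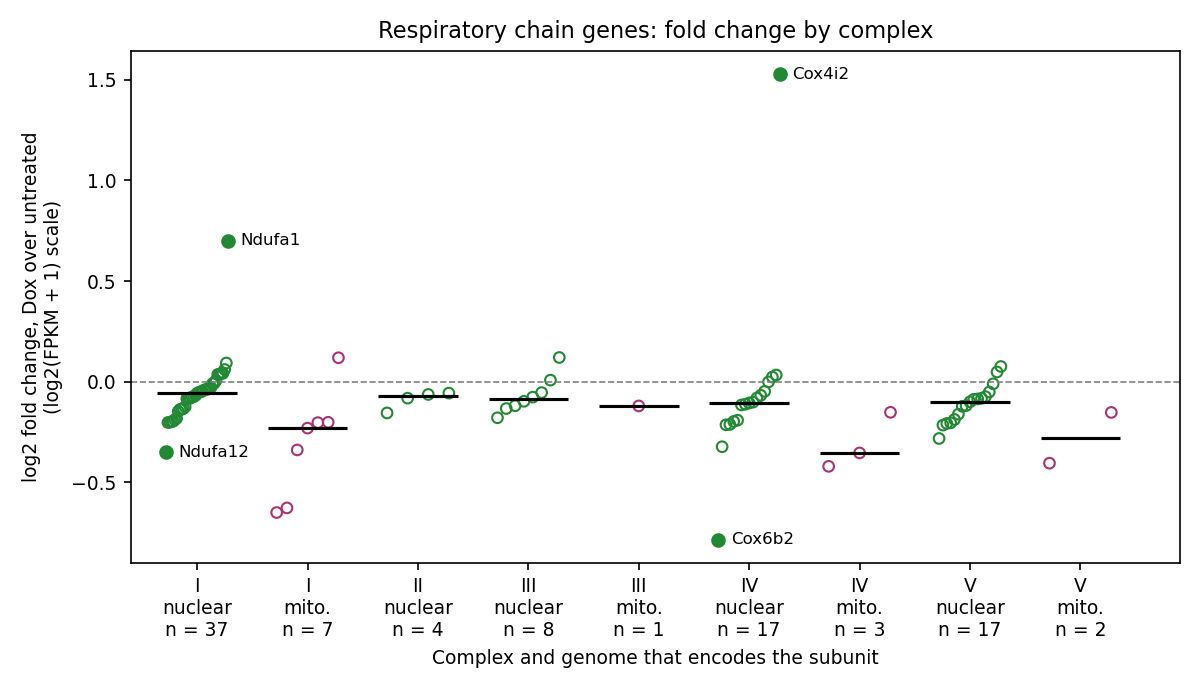
Log2 fold change (Dox over untreated, log2(FPKM + 1) scale) of each tested respiratory chain gene, by complex and by the genome that encodes it. Circles are genes, filled where the limma adjusted p was below 0.05, and black lines are medians; the 4 filled circles are all nuclear, and each mitochondrial median lies below the nuclear median of the same complex.

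Cox4i2 had the largest fold change of any member. It encodes the alternative isoform of cytochrome c oxidase subunit 4, known from lung and from pericytes and linked to oxygen sensing, and lies on chromosome 2 (GRCm38, 152754173 to 152765037, plus strand). It was at 4.81 and 4.45 FPKM untreated and at 16.01 and 14.49 FPKM with Dox. Both Dox libraries were well above both untreated ones, and the ratio of means was 3.29 (log2 fold change 1.53 ± 0.10 SE, limma adjusted p = 7.3e-04, n = 2 per group). Cox4i1, the ubiquitous isoform and the most abundant nuclear subunit of complex IV, was at 1014 and 1097 FPKM untreated and at 981 and 870 FPKM with Dox (log2 fold change −0.19, adjusted p = 0.348). The isoforms occupy the same place in the enzyme, and the ratio of Cox4i2 to Cox4i1 FPKM was 0.0047 and 0.0041 untreated and 0.0163 and 0.0167 with Dox. Cox4i1 thus remained by far the more abundant transcript in every library. Of 8 markers of pericytes and other mural cells, a list added after values had been seen, 2 were tested and 0 called, with sums of 34.6 to 43.2 FPKM untreated and 37.9 to 46.9 FPKM with Dox. Most of that was Notch3, also a neural progenitor gene. Of the markers below the filter, Pdgfrb was at 0.64 and 0.46 FPKM untreated and at 0.99 and 1.03 FPKM with Dox, and Abcc9 at 0 and 0.02 FPKM and then 0.06 and 0.03 FPKM, both higher in both Dox libraries. Cspg4 was at 0.32 and 0.38 FPKM and then 0.19 and 0.19 FPKM, lower in both. Higd1b was at 0 in all 4 libraries and Rgs5 at most at 0.06 FPKM. The part of such cells in the Cox4i2 result was not tested.

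Cox6b2 moved the other way. It encodes an isoform of subunit 6B best known from testis, and lies on chromosome 7 (GRCm38, 4751792 to 4753094, minus strand). Its level was 111 and 112 FPKM untreated and 68.8 and 60.4 FPKM with Dox. The groups were far apart compared with the gap between replicates, and the ratio of means was 0.578 (log2 fold change −0.78 ± 0.08 SE, limma adjusted p = 0.0038). Cox6b1, the widespread isoform, was at 437 and 458 FPKM untreated and at 439.5 and 390.0 FPKM with Dox, with overlapping groups (log2 fold change −0.11, adjusted p = 0.518). The ratio of Cox6b2 to Cox6b1 was 0.254 and 0.245 untreated and 0.156 and 0.155 with Dox. The ratio hardly differed between replicates. Neither Cox4i2 nor Cox6b2 overlaps an exon of another gene in GENCODE M21, and both calls held in all 17 alternative settings.

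**Figure D2:**
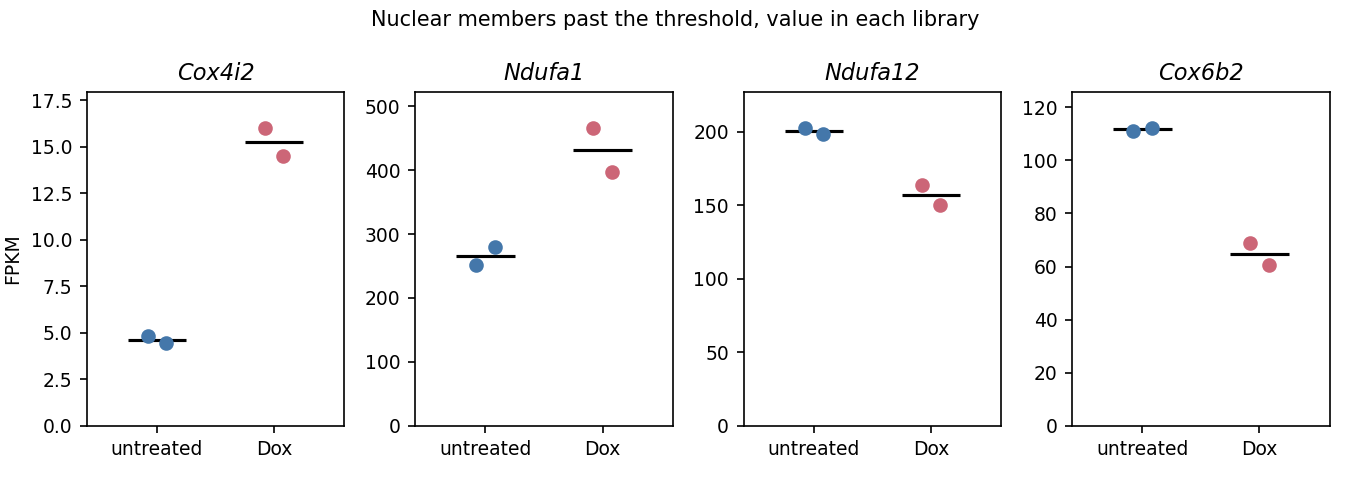
FPKM of the 4 nuclear members with a limma adjusted p below 0.05, in 2 untreated and 2 Dox libraries (points) with the group mean (line); each axis starts at 0. The groups do not overlap in any panel, with Cox4i2 and Ndufa1 higher and Ndufa12 and Cox6b2 lower in the Dox libraries.

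The promoters of this isoform pair are shown because one isoform was called and the other was not. Each run is the part of the RefSeq promoter window (GRCm38.p6, 250 bases before to 50 bases after the start) that holds no annotated exon, 5′ to 3′ on the gene's strand, with CCAAT boxes in capitals (written ATTGG where the box is on the other strand).
Cox6b2, chr7:4753095-4753225, minus strand: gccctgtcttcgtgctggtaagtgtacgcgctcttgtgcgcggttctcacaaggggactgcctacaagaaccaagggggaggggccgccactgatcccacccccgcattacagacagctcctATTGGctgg
Cox6b1, chr7:30626152-30626364, minus strand: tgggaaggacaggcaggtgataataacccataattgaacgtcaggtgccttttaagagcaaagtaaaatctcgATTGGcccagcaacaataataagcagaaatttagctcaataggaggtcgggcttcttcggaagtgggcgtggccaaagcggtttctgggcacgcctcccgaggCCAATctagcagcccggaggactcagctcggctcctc
The stretch of Cox6b2 holds 1 CCAAT box and that of Cox6b1 holds 2. Over the full window of 300 bases both had 3 CCAAT boxes. Cox6b1 also had 1 match to the ETS motif, which GABP (NRF-2) binds, while Cox6b2 had none.

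Such motifs are known from nuclear respiratory chain genes, and they were searched on both strands in the promoters of the 67 nuclear members (of 88 symbols) found in the RefSeq table. The NRF1 motif, GCGC and GCGC with any 2 bases (NN) between, was in 17 of 67 (25.4%, against 6.43% of all 27025 promoters). The ETS motif, CCGGAAG, was in 16 (23.9%, against 9.12%), the YY1 motif, AANATGGCG, in 8 (11.9%, against 2.51%) and the CCAAT box in 30 (44.8%, against 37.9%). The ETS and YY1 motifs can share the letters AAG, and matches were counted separately for each motif. Among the called members, Ndufa1 and Ndufa12 had none of the 4 motifs in this window, and Cox4i2 was not matched. Members that hold them, shown as examples with the motifs in capitals, were Uqcrh (an ETS match, CTTCCGG on this strand, and a CCAAT box) and Atp5h (an NRF1 match and CCAAT boxes).
Uqcrh, chr4:116075072-116075268, minus strand: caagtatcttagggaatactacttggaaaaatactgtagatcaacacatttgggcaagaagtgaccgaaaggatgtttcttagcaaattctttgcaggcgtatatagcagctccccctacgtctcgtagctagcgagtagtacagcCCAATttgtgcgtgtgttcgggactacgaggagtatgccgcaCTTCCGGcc
Atp5h, chr11:115419963-115420127, minus strand: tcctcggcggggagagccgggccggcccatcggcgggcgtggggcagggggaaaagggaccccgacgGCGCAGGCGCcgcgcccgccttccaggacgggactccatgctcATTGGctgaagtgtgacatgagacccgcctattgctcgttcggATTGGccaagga
Both genes were among the many nuclear members without a called change. Uqcrh, the hinge protein of complex III, had a log2 fold change of −0.18 (adjusted p = 0.421), and Atp5h, a peripheral stalk subunit, one of −0.16 (adjusted p = 0.400).

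Complex I had the other 2 called members, both supernumerary subunits that surround the catalytic core. Ndufa1, on the X chromosome (GRCm38, 37187588 to 37191163, minus strand), encodes a small membrane-arm subunit needed for assembly of the complex. It was at 251 and 279.6 FPKM untreated and at 467 and 398 FPKM with Dox. Its mean over all libraries was the highest of any nuclear complex I gene, but Ndufa7 was higher untreated (299 and 315 FPKM). For Ndufa1 both Dox libraries were above both untreated ones, by a ratio of means of 1.63 (log2 fold change 0.70 ± 0.11 SE, limma adjusted p = 0.0157). The call was lost without untreated replicate 1 (adjusted p = 0.131), without untreated replicate 2 (0.0747), without Dox replicate 1 (0.0769) and with no filter on low values (0.0984). The annotated transcript of Ndufa1 is only 419 nt long, which makes FPKM sensitive to the length correction. Ndufa12 (chromosome 10, GRCm38, 94198720 to 94221443, plus strand) encodes a subunit of the matrix arm. It was at 203 and 198 FPKM untreated and at 164 and 150.1 FPKM with Dox, again without overlap (ratio of means 0.784, log2 fold change −0.35 ± 0.07 SE, adjusted p = 0.0442). A processed pseudogene of 99.5% identity over 402 nt, Gm15920, was at 39.8 and 39.8 FPKM untreated and at 30.2 and 27.0 FPKM with Dox, and shares reads with it; with both added the adjusted p was 0.0411. This is the least firm of the 4 calls, since it was lost when any library was left out (adjusted p 0.0769 to 0.249), with the replicate number as a block (0.128), with no filter on low values (0.114), with median centring (0.0701) and without the limma trend (0.0821).

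The 7 nuclear core subunits of complex I, which oxidise NADH and carry electrons along iron-sulphur clusters, were all tested. Every one had a negative fold change (50.8% of all tested genes), and in 6 of 7 both Dox libraries lay below both untreated ones (26.9% of all tested genes). None passed the threshold (limma, 0 of 7 called against 9.31% of all tested genes). An unadjusted limma p below 0.05 was reached by 1 of 7, which was lower (11.9% of all tested genes). The lowest was Ndufs7, which holds the last iron-sulphur cluster before quinone, at 96.8 and 95.5 FPKM untreated and 86.2 and 80.8 FPKM with Dox (log2 fold change −0.20, adjusted p = 0.141). The others were closer to 0, such as Ndufs1, the largest subunit, at 57.2 and 58.7 FPKM and then 56.9 and 56.6 FPKM (log2 fold change −0.03, adjusted p = 0.828). Of 28 supernumerary subunits, 20 had negative fold changes. Ndufv3 was the only further complex I member with both Dox libraries above both untreated ones (174 and 177 FPKM, then 191 and 184 FPKM, log2 fold change 0.09, adjusted p = 0.457). Levels of Ndufb4 and its intronless copy Ndufb4c are uncertain, because 390 nt are identical between them. The table gave 20.7 FPKM to Ndufb4 and 186 FPKM to Ndufb4c on average, with log2 fold changes of −0.20 and −0.12 that did not pass (adjusted p = 0.218 and 0.576).

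Complex II, succinate dehydrogenase, links the citric acid cycle to the chain and is wholly nuclear encoded. All 4 subunits had negative fold changes and 0 of 4 passed (limma, 0 at an unadjusted p below 0.05). Sdhd, a membrane anchor and the most abundant of them, was at 144 and 151 FPKM untreated and at 139.7 and 126 FPKM with Dox (log2 fold change −0.16, adjusted p = 0.308). Sdhb, the iron-sulphur subunit, was at 77.7 and 83.0 FPKM and then 81.6 and 72.9 FPKM (log2 fold change −0.06), with a sign that turned when Dox replicate 2 was left out (0.02). Sdha and Sdhc lay between these in fold change.

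In complex III, which passes electrons from quinol to cytochrome c, 0 of 8 nuclear members passed (limma, 0 at an unadjusted p below 0.05) and 6 of 8 had negative fold changes. Uqcrh was the most abundant and the lowest in fold change, at 465 and 523 FPKM untreated and 476 and 399 FPKM with Dox. Its groups overlapped. Uqcrb, which binds near the quinone site, had the highest fold change, from 220.4 and 251 FPKM to 275 and 238 FPKM (log2 fold change 0.12, adjusted p = 0.555), and its groups overlapped too. Uqcrfs1, the Rieske iron-sulphur protein, was at 198 and 187 FPKM and then 176 and 178 FPKM (log2 fold change −0.12, adjusted p = 0.359).

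Complex IV, cytochrome c oxidase, reduces oxygen. Its 11 widely expressed nuclear subunits included Ndufa4, which carries a complex I name but belongs to this enzyme. None of the 11 passed (limma, against 9.31% of all tested genes called). An unadjusted limma p below 0.05 was reached by 2, both lower (11.9% of all tested genes). Negative fold changes were seen in 9 of 11 (50.8% of all tested genes). The lowest were Cox8a, at 504 and 529 FPKM untreated and 456 and 435 FPKM with Dox (log2 fold change −0.21, adjusted p = 0.175), and Cox6a1, at 361 and 350.4 FPKM and then 314 and 300.2 FPKM (log2 fold change −0.21, adjusted p = 0.147). Ndufa4 overlapped between groups, at 388 and 403 FPKM and then 430.2 and 363 FPKM. Among the 8 tissue-restricted isoforms, Cox4i2 and Cox6b2 were called and 2 more were tested. Cox7a1, the heart and muscle form of subunit 7A, was at 11.1 and 8.77 FPKM untreated and at 7.83 and 7.54 FPKM with Dox (log2 fold change −0.32, adjusted p = 0.201). Ndufa4l2, a hypoxia-inducible relative of Ndufa4, was at 9.65 and 7.19 FPKM and then 7.25 and 8.45 FPKM, and its log2 fold change of −0.08 turned positive without untreated replicate 1 (0.11) or Dox replicate 1 (0.02).

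The other 4 isoforms were at or near 0. Cox6a2 and Cox8b, the heart and muscle forms, were at 0 in all 4 libraries. A count of 3 fragments, the limit a count of 0 allows, would be at most 0.215 FPKM for Cox6a2 and 0.799 FPKM for Cox8b, counting error only. Cox7b2, known from testis, was at 0.10, 0.09 and 0.10 FPKM and then 0, where each value above 0 is about 1 fragment. Cox8c, also known from testis, had about 1 fragment in Dox replicate 2 alone (0.14 FPKM). The last members below the filter were Ndufa11b, a copy of Ndufa11 (0 to 0.16 FPKM), and a second row named Atp5o, at 0 in all 4 libraries. Of the forms known from testis, Cox6b2 was thus at 60.4 FPKM or more in every library and the other 2 at single fragments. Muscle markers summed to 41.3 to 53.0 FPKM untreated and 43.2 to 46.9 FPKM with Dox, mostly Acta1, with Ckm at most at 0.06 FPKM.

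Complex V had 0 of 17 tested nuclear members past the threshold (limma, against 9.31% of all tested genes called). An unadjusted limma p below 0.05 was reached by 1 of 17, which was lower (11.9% of all tested genes). Negative fold changes were seen in 15 of 17 (50.8% of all tested genes). Atp5b, the catalytic beta subunit and the most abundant nuclear member of the whole chain, was at 1159 and 1192 FPKM untreated and at 1104 and 1088 FPKM with Dox (log2 fold change −0.10, adjusted p = 0.559). Its groups did not overlap, but the difference was small. Atp5j, coupling factor 6 of the peripheral stalk, was the lowest in fold change, from 224 and 235 FPKM to 193 and 185 FPKM (log2 fold change −0.28 ± 0.07 SE, adjusted p = 0.0697). It passed in 2 of the 17 alternative settings, and its exons overlap those of Gabpa on the opposite strand, which unstranded counting would not separate. Gabpa itself encodes the ETS factor GABP alpha. The c ring, the rotor that protons turn, is encoded by 3 genes for the same mature protein. Of these, Atp5g2 had the highest fold change of complex V, at 526 and 541 FPKM and then 600.5 and 526 FPKM (log2 fold change 0.08, and −0.02 without Dox replicate 1), and Atp5g3 was at 468 and 489.5 FPKM and then 456 and 424 FPKM. The 5 small membrane subunits were all negative, with a median log2 fold change of −0.19 and 0 called (limma, 0 at an unadjusted p below 0.05).

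The mitochondrially encoded genes had more negative fold changes than the nuclear ones, but replicates differed widely and 0 of 13 passed the threshold as deposited, against 4.87% of all tested genes called lower. An unadjusted p below 0.05 was reached by 5 of 13, all lower, against 11.9% of all tested genes, but the 13 genes share their primary transcripts. The fold change was negative for 12 of 13 (50.8% of all tested genes). Their median log2 fold change was −0.23, and in 7 of 13 both Dox libraries lay below both untreated ones (26.9% of all tested genes). As for the nuclear set, untreated replicate 2 was high and Dox replicate 2 low. The median member stood at −0.0085 and 0.219 in the untreated libraries and −0.0109 and −0.237 in the Dox libraries, on the log2 scale relative to each gene's mean. The first replicates of the 2 groups were therefore level in FPKM as deposited. The mitochondrial median was −0.145 without Dox replicate 2 and −0.338 without Dox replicate 1. As a share of each library's FPKM sum, the 13 genes made up 3.52% and 4.31% untreated and 3.38% and 2.86% with Dox.

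The size of the difference varied along the mitochondrial chromosome, without a strict order. This is a pattern noticed in these data and has no test. Heavy-strand transcription starts before mt-Rnr1 and mt-Rnr2, the ribosomal RNAs (not members), and runs through mt-Nd1, mt-Nd2, mt-Co1, mt-Co2, mt-Atp8, mt-Atp6, mt-Co3, mt-Nd3, mt-Nd4l, mt-Nd4 and mt-Nd5 to mt-Cytb. The most negative fold changes were those of mt-Nd1, mt-Nd2 and mt-Rnr2, which lie near the start, while mt-Rnr1, which comes before them, was close to mt-Co2. mt-Nd1 (GRCm38, 2751 to 3707), a quinone-site subunit of complex I, was at 2732 and 3512 FPKM untreated and at 2283 and 1761 FPKM with Dox (log2 fold change −0.63 ± 0.19 SE, limma adjusted p = 0.120). mt-Nd2 (3914 to 4951), a proton-pumping subunit, was at 1387 and 1776 FPKM and then 1130 and 884 FPKM (−0.65 ± 0.18 SE, adjusted p = 0.0909). In both genes the Dox libraries lay below the untreated ones, although the replicates of each group were far apart.

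The subunits of complexes IV and V follow on the chromosome. mt-Co1 (5328 to 6872), the catalytic subunit of cytochrome c oxidase, was at 4859 and 6083 FPKM untreated and at 4773 and 3791 FPKM with Dox (log2 fold change −0.35 ± 0.20 SE, adjusted p = 0.350). mt-Co2 (7013 to 7696), which takes electrons from cytochrome c, was at 2124 and 2677 FPKM and then 1949 and 1628 FPKM (−0.42 ± 0.16 SE, adjusted p = 0.202). These 2 were lower in both Dox libraries, mt-Co1 by little in Dox replicate 1. mt-Atp6 and mt-Co3 overlapped between groups, with log2 fold changes of −0.15 and −0.15 (adjusted p = 0.558 and 0.637), and mt-Co3 turned to 0.01 without Dox replicate 2. mt-Atp8, at 8770 and 12516 FPKM and then 9554 and 6555 FPKM, also overlapped (−0.40, adjusted p = 0.456). Its 204 nt are shorter than the length correction fitted to these libraries (234 to 244 nt), so its FPKM level is not comparable with that of longer genes.

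Of the genes farthest from the start, mt-Nd4 (901 and 1061 FPKM, then 934 and 774 FPKM) and mt-Nd5 (488 and 574 FPKM, then 479 and 441 FPKM) had log2 fold changes of −0.20 and −0.20 (adjusted p = 0.443 and 0.328). mt-Nd3 was at 622 and 707 FPKM and then 525 and 523 FPKM (−0.34, adjusted p = 0.0945). mt-Nd4l was the only mitochondrial member with a positive value, from 305 and 407 FPKM to 389 and 377 FPKM (0.12, adjusted p = 0.673), and it turned to −0.09 without untreated replicate 1. Those last 2 are also short, at 348 and 297 nt. mt-Cytb (14145 to 15288), the heavy-strand gene farthest from the start and the only mitochondrial subunit of complex III, overlapped between groups, at 2228 and 2710 FPKM untreated and 2519 and 2028 FPKM with Dox (−0.12 ± 0.17 SE, adjusted p = 0.721, and 0.02 or 0.04 without untreated or Dox replicate 2). mt-Nd6 (13552 to 14070), the only light-strand member, was at 462 and 476 FPKM and then 414 and 386 FPKM (−0.23 ± 0.08 SE, adjusted p = 0.150). Its exon overlaps that of mt-Nd5 on the opposite strand, and heavy-strand transcripts run across it. Unstranded counting would not separate the strands, so these values may include heavy-strand RNA. For the ribosomal RNAs before mt-Nd1, mt-Rnr1 was at 179 and 222 FPKM and then 168 and 129.6 FPKM (−0.43, adjusted p = 0.175) and mt-Rnr2 at 330.0 and 365 FPKM and then 259 and 197 FPKM (−0.62, adjusted p = 0.0589).

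**Figure D3:**
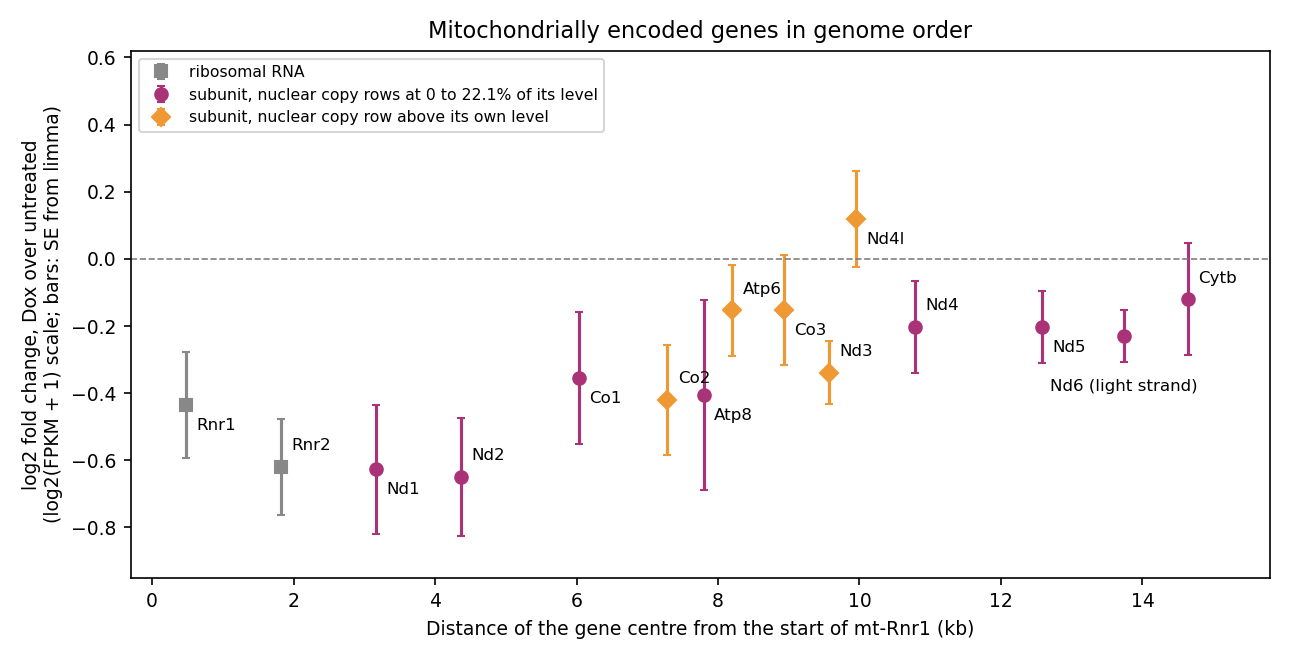
Log2 fold change (Dox over untreated, log2(FPKM + 1) scale, bars SE from limma) of the 13 mitochondrially encoded subunits and 2 ribosomal RNAs against the distance of the gene's centre from the start of mt-Rnr1 in kb. mt-Rnr2, mt-Nd1 and mt-Nd2 lie lowest at −0.62 to −0.65 and mt-Cytb at the far end at −0.12; orange diamonds are genes whose near-identical nuclear copies hold more FPKM than the gene's own row.

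Ratios within a library do not depend on library scaling, and they separated the groups more clearly than levels did. They were chosen after the values were seen and are given as a description. The ratio of mt-Nd1 to mt-Cytb was 1.23 and 1.30 untreated and 0.906 and 0.868 with Dox. The copy search described below counted none for either gene among annotated transcripts with reads. For mt-Nd2 over mt-Cytb it was 0.622 and 0.655, then 0.449 and 0.436, and for mt-Co1 over mt-Cytb 2.18 and 2.25, then 1.89 and 1.87. In these 3 ratios the gap between groups was several times that between replicates. Toward the far end the groups overlapped, with 0.219 and 0.212, then 0.190 and 0.217, for mt-Nd5 over mt-Cytb, and 0.207 and 0.176, then 0.164 and 0.190, for mt-Nd6 over mt-Cytb. As a share of the summed FPKM of the 13 genes, mt-Nd1 made up 9.45% and 9.44% untreated and 7.80% and 7.76% with Dox. mt-Nd2 made up 4.79% and 4.77%, then 3.86% and 3.89%. Shares sum to 100%, so others had to be higher, and mt-Cytb made up 7.70% and 7.28%, then 8.61% and 8.93%. mt-Nd1 and mt-Nd2 thus had nearly equal shares in the 2 replicates of a group although their levels differed.

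Which mitochondrial genes passed depended on the scaling. The FPKM columns sum to between 793308 (Dox replicate 2) and 866239 (Dox replicate 1), and rescaling them to a common sum, as TPM, narrowed the spread between replicates. On that scale 4 of 13 were called lower (mt-Nd1, mt-Nd2, mt-Co2 and mt-Nd3), against 4.01% of all tested genes. mt-Nd1 then had a log2 fold change of −0.60 ± 0.11 SE (limma adjusted p = 0.0135) and mt-Nd2 one of −0.63 ± 0.11 SE (adjusted p = 0.0105), while mt-Cytb stayed at −0.10 (adjusted p = 0.660). Rescaling to the sum without the mitochondrially encoded genes called 3 (mt-Nd1, mt-Nd2 and mt-Nd3, against 4.07% of all), and quantile normalization 4 (mt-Nd1, mt-Nd2, mt-Co1 and mt-Co2, against 4.95%). The median over the 13 genes was −0.21, −0.22 and −0.18 in these 3 settings. mt-Nd1 and mt-Nd2 were thus called in each of the 3, but neither as deposited nor after median centring.

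Nuclear copies of mitochondrial DNA share reads with several of these genes. Unprocessed pseudogenes on chromosome 1 (GRCm38, between 24611535 and 24616197) and chromosome 2 (between 22587291 and 22590533) hold near-identical stretches. The table gave several of them high values, and how fragments that align equally well in both places were divided between the rows is not given in the sources used here. The first 75 bases of mt-Co2 and of its copies, and a stretch of mt-Nd2 with its copy, are shown to make plain how few bases tell them apart. Capitals mark bases that differ from the mitochondrial gene, each run is 5′ to 3′ in the direction of the gene, and the sequences are from GENCODE M21.
mt-Co2, chrM:7013-7087, plus strand: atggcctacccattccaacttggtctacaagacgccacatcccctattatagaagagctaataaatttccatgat
Gm28661, chr1:24615491-24615565, minus strand: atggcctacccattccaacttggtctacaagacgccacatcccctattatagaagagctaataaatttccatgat
Gm13341, chr2:22587888-22587962, minus strand: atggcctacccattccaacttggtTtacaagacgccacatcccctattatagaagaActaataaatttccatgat
mt-Nd2, chrM:4442-4516, plus strand: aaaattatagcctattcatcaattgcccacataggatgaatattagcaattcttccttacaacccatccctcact
Gm13339, chr2:22590459-22590533, minus strand: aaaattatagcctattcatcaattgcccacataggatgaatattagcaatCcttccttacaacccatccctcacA
The Gm28661 stretch does not differ from mt-Co2 at any base, and the whole match is 100% over 681 nt. The other 2 copies differ by 2 bases each in these stretches.

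Gm28661 was at 4744 and 6523 FPKM untreated and at 4950 and 3570 FPKM with Dox, more than mt-Co2 itself. Together the copies held 259% of the mean FPKM of mt-Co2, 184% of mt-Atp6, 160% of mt-Co3, 296% of mt-Nd3 and 381% of mt-Nd4l. For mt-Co1 and mt-Nd4 they held 22.1% and 20.6%, for mt-Nd2 7.47% and for mt-Nd5 1.31%. Among annotated transcripts with reads, no copy of at least 100 nt at 95% identity was counted for mt-Nd1, mt-Cytb, mt-Nd6 or mt-Atp8. Matches on the opposite strand, within a much longer transcript or in a transcript of unconfirmed type were not counted. The ribosomal RNAs were not searched. With the copies added to their genes, the median over the 13 members was −0.29 and 0 were called (limma). mt-Nd3 went to −0.47, mt-Atp6 to −0.29 and mt-Nd4l to −0.21, so that all 13 were negative. For the genes at the 2 ends, mt-Nd1 and mt-Cytb, no such copies were found, so their values did not change. Copies without an annotated transcript would have been missed, since the genome was not searched. Some nuclear members also have near-identical copies with high values. Gm6969 was at 160% of the mean FPKM of Cox7a2l, BC002163 at 130% of Ndufs5, Gm16418 at 99.6% of Uqcr11 and Gm15151 at 76.8% of Atp5md. With copies that are not themselves members added, the median log2 fold change of the nuclear members was −0.08.

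The 13 mitochondrial genes summed to 28920 and 37204 FPKM untreated and to 29275 and 22706 FPKM with Dox. The 89 nuclear rows summed to 18425 and 19679 FPKM, then 18883 and 16962 FPKM. Both sums overlapped between groups. The ratio of the mitochondrial to the nuclear sum was 1.57 and 1.89 untreated and 1.55 and 1.34 with Dox. Without mt-Atp8, whose level is not comparable, it was 1.09 and 1.25, then 1.04 and 0.952. Both Dox libraries lay below both untreated ones in these ratios, but untreated replicate 1 and Dox replicate 1 differed by little, and for a single value 2 libraries against 2 allow no exact two-sided permutation p below 0.333.

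**Figure D4:**
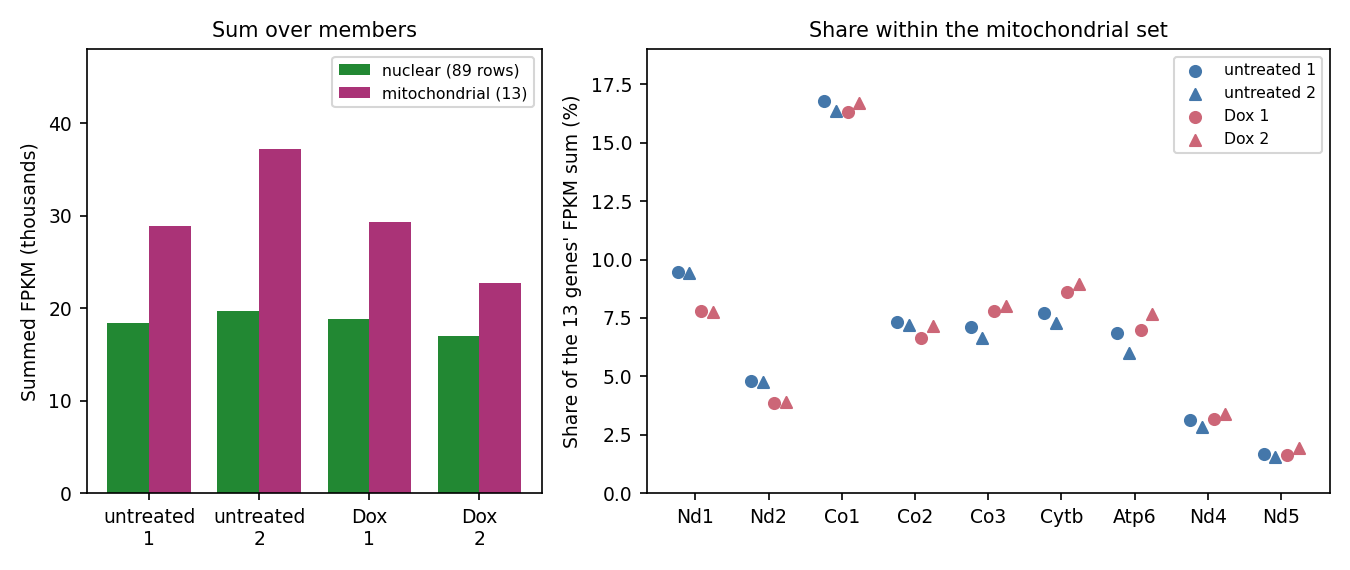
Left, FPKM summed over the 89 nuclear (green) and the 13 mitochondrially encoded (purple) rows in each library. Right, share of selected genes in the summed FPKM of the 13 mitochondrial genes (percent), with blue for untreated, red for Dox, circles for replicate 1 and triangles for replicate 2; mt-Nd1 and mt-Nd2 have lower shares and mt-Cytb a higher share in both Dox libraries.

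Complex by complex, the mitochondrial subunits had lower medians than their nuclear partners, although they share the 4 libraries and their spread. For complex I the medians were −0.23 over 7 mitochondrial and −0.06 over 37 nuclear genes, and for complex III −0.12 for mt-Cytb and −0.09 over 8. For complex IV they were −0.35 over 3 and −0.11 over 17, and for complex V −0.28 over 2 and −0.10 over 17. The −0.28 is the midpoint of mt-Atp8 (−0.40 ± 0.28 SE), whose level is not comparable, and mt-Atp6 (−0.15 ± 0.14 SE). Alone, mt-Atp6 was thus close to the nuclear median, and with its copies added it was at −0.29 ± 0.20 SE. Complex III showed the smallest gap, and its mitochondrial median turned positive without untreated or Dox replicate 2. In sums, the mitochondrial subunits of complex I went from 6897 and 8513 FPKM to 6153 and 5147 FPKM, a ratio of means of 0.733. Those of the nuclear subunits went from 4791 and 5055 FPKM to 5131 and 4590.0 FPKM, a ratio of 0.987. The groups were apart for the mitochondrial sum and overlapped for the nuclear one. Over all complexes the mitochondrial median minus the nuclear median was −0.148, and it ranged from −0.207 to −0.103 when each library was left out.

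Lists of genes that build and serve the chain are read against the 9.31% of all tested genes that were called. Among 48 tested assembly and cofactor insertion factors, 1 was called, with a median log2 fold change of −0.06. It was Coa7, an assembly factor of cytochrome c oxidase, at 76.1 and 76.4 FPKM untreated and at 56.6 and 61.3 FPKM with Dox (log2 fold change −0.37, limma adjusted p = 0.0314). The groups did not overlap, but the call was lost in 9 of 17 alternative settings. The subunits and carriers outside the symbol rule, such as Cyc1 and Cycs (cytochrome c1 and cytochrome c), had 0 of 8 called and a median of −0.0038. Genes for transcription and upkeep of mitochondrial DNA had 0 of 20 called, with an unadjusted p below 0.05 for 2 higher and 1 lower, and a median of 0.04. Tfam, which packages the DNA and starts transcription, was at 63.8 and 70.0 FPKM and then 57.4 and 61.2 FPKM (−0.17, adjusted p = 0.261), and Polrmt, the mitochondrial RNA polymerase, at 15.2 and 12.3 FPKM and then 9.54 and 12.4 FPKM (−0.31, adjusted p = 0.310). Genes for processing and stability of mitochondrial RNA had 0 of 16 called (an unadjusted p below 0.05 for 1 higher and 1 lower, median −0.09). Lrpprc, which stabilises mitochondrial messenger RNAs, was the lower one, at 31.4 and 31.0 FPKM and then 26.3 and 27.8 FPKM (−0.20, adjusted p = 0.165).

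Of the nuclear regulators of mitochondrial genes, 1 of 9 tested was called higher. This was Myc, a growth regulator with many targets besides mitochondrial genes, at 2.86 and 2.77 FPKM untreated and 14.5 and 18.4 FPKM with Dox (log2 fold change 2.18, limma adjusted p = 6.3e-04). Nrf1 overlapped between groups (41.4 and 38.9 FPKM, then 38.6 and 39.9 FPKM), and Ppargc1a, the coactivator best known for raising mitochondrial content, was at most at 0.41 FPKM. Citric acid cycle enzymes had 0 of 17 called and a median of −0.09. Genes used as a gauge of mitochondrial mass and import had 0 of 18 called and a median of −0.07 (0 of either list at an unadjusted p below 0.05). These medians were close to the −0.08 of the nuclear subunits. Vdac1, the outer membrane channel, was at 248 and 247 FPKM and then 233 and 239 FPKM (−0.07, adjusted p = 0.591).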

How the data were processed

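Poly(A) RNA of 4 day 6 organoid libraries was sequenced in pairs, per the labels' protocols. The authors deposited FPKM values, rounded, with 1 column per library; the submitters' processing notes list STAR, Cuffdiff and mm10 without versions or roles, and strand setting, annotation and treatment of multiply aligned reads are not given in the sources used here. FPKM is not a count, so values were taken as log2(FPKM + 1), and the 13931 genes that averaged 1 FPKM or more went into a limma fit (version 3.58.1, R 4.3.3; eBayes with trend) of all 4 libraries without covariates, two-sided, Benjamini-Hochberg over all tested genes, threshold 0.05. Fold changes on this scale understate the change of low genes. Members were read from that fit. Samples were grouped by the treatment label, and numbers in the titles name replicates.

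Members, lists and alternatives were chosen with earlier results of these data known. Named genes were all mitochondrial members, called nuclear members without overlap, the most abundant and the highest and lowest nuclear member by fold change per complex, tissue-restricted isoforms, up to 3 called genes per list and Mettl3; others (such as Ndufs7, Cox8a or Tfam) were added by role after values were seen. Positions, lengths and transcript sequences are from GENCODE M21 (GRCm38, 13918 of 13931 tested genes matched), and promoters from RefSeq (GRCm38.p6). Copies were found with blastn 2.17.0 (at least 95% identity over 100 nt). Only same-strand matches that covered a large part of the copy's own transcript were kept, and transcripts of unconfirmed type were left out. Of the tested nuclear members, 26 overlap an exon on the other strand. On simulated libraries of 13931 genes with 200 changed, 100% of the 2-fold and 100% of the 4-fold differences were recovered. Of these, 0 were in the wrong direction, and 7.41% of calls were false. In the simulation all genes of a given level had the same spread, with no shifts between libraries, and only the more abundant genes were changed. Recovery in the real libraries may therefore be lower. Recovery of smaller differences, such as those of most members, was not tested. Depth was fitted from low values that step by 1 fragment: 92.2% to 93.1% came out whole within 0.2, against 17.5% to 19.7% at a wrong depth, and the fit was within 0.449% in simulated libraries.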

Additional observations from a re-analysis of the deposited data

How the results depend on the processing

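Of 15 planned and 2 added settings (removal of GC and length trends, and adding near-identical copies, both chosen after seeing the data), Cox4i2 and Cox6b2 passed in all 17. All tested genes called higher (619) fell in number to 336 with no filter and 408 at a minimum of 5 FPKM, and those called lower (678) to 409 and 413; leaving out a library gave 262 to 320 higher and 331 to 377 lower, from fits in which the lone library of a group is assumed to vary like the other group. Nuclear members called higher (2) became 1 with no filter, and 1 to 2 with a library left out. Nuclear members called lower (2) became 1 with no filter, with median centring, without the trend and with a replicate block, and 1 with any library left out. Mitochondrial members called lower (0) became 4 in TPM, 4 after quantile normalization, 3 after rescaling without the mitochondrial genes and 3 after removal of GC and length trends. Same-numbered libraries did not deviate together (correlation −0.0435), so numbers were not taken as pairs.

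Medians kept their sign when a library was left out, from −0.149 to −0.026 for nuclear and −0.338 to −0.145 for mitochondrial members, except nuclear complex I (−0.130 to 0.0072) and mitochondrial complex III, which is mt-Cytb alone (−0.277 to 0.0360). Leaving out a library also turned the sign of Atp5g2 (−0.0195 to 0.170), Ndufa4l2 (−0.270 to 0.108, and 0.0170 without Dox replicate 1), Sdhb (−0.137 to 0.0237), mt-Co3 (−0.316 to 0.0116) and mt-Nd4l (−0.0876 to 0.325), and adding copies turned mt-Nd4l to −0.213. The cause of these changes was not tested, apart from the smaller number of genes or libraries that some settings hold by construction. With 2 libraries a group, differences of the size of the nuclear median cannot be resolved for single genes.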
